A study of Mus musculus with 6 samples.

Results

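Motile cilia are the beating hairs of ependymal cells, which line the central canal of the spinal cord and move cerebrospinal fluid. The 32 genes listed for this account encode the parts of such cilia and the factors that switch these parts on, and their transcripts were compared between wild type and Nogo-A knockout spinal cord. Members were found as every probe set annotated to a listed name or its synonym. This gave 49 probe sets of 33 genes among 45037 probe sets that are not controls, the additional gene being Spag6l, which carries Spag6 as a synonym.

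The series holds whole spinal cord of 6 male mice aged 4 months, all untreated and without injury, with 1 Affymetrix Mouse 430 2.0 array per animal. The wild type group was C57Bl/6 (n = 3) and the other group was Nogo-A KO on C57Bl/6 (n = 3), which lacks the longest protein of the gene Rtn4, an oligodendrocyte and neuronal protein known as an inhibitor of axon growth. The allele behind the knockout was not given in the sources used here. An Rtn4 probe set with signals of 3560.2, 2790.4 and 2801.6 in wild type had 78.2, 9.17 and 5.08 in knockout, which checks the labels of all 6 arrays. The other Rtn4 probe sets were each higher in every knockout array than in every wild type array.

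The motile cilium is built on a ring of microtubule doublets around a central pair. Dynein arms on the doublets make the force, radial spokes and the central pair time it, tektins and other inner proteins stiffen the doublets, and intraflagellar transport carries the parts to the tip. Foxj1 is the master transcription factor of motile cilia, and the RFX factors, among them Rfx2 and Rfx3, bind the X-box in promoters of ciliary genes. In spinal cord the ependymal cells form a thin layer around the canal.

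The promoters of the members hold X-box letters at a higher share than promoters in general, and the matches are shown because this is a feature the choice of members did not use. RefSeq windows of assembly GRCm38.p6, from 250 bases before to 50 after a listed start, were found for 28 of the 33 genes. The 14-letter X-box pattern, GTTNCC and GNAAC with 3 bases between them, was searched on both strands. It stood in 5 of 28 member genes (17.86%), in 7 of 79 other motile cilium genes (8.86%), in 2 of 32 genes of ciliary transport and the primary cilium (6.25%) and in 253 of 27025 genes in the whole table (0.94%). In the lines below each stretch has 60 bases, 5′ to 3′ on the strand of its gene, and capitals mark the match.
Enkur, chr2:21205348-21205407, minus strand: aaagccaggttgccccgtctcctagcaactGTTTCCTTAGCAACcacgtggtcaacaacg
Hydin, chr8:110266926-110266985, plus strand: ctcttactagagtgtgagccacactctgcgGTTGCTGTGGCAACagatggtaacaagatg
Pifo, chr3:106001488-106001547, minus strand: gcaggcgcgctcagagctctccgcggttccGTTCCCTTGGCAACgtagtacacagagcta
Spag16, chr1:69826837-69826896, plus strand: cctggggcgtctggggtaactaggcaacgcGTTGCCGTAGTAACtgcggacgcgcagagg
Tekt4, chr17:25471560-25471619, plus strand: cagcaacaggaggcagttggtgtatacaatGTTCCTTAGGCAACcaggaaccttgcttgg
The match began 12, 21, 20 and 103 bases before the listed start in Enkur, Hydin, Pifo and Spag16, and at the start itself in Tekt4. These 5 genes were all dim on the arrays, so no expression test stands beside their sequences.

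The shorter letters GTTGCC, a single arm of the X-box that can overlap the longer pattern, stood in 16 of 28 member genes (57.14%). They stood in 31 of 79 other motile cilium genes (39.24%) and in 14 of 32 genes of ciliary transport and the primary cilium (43.75%). In the whole table they stood in 3821 of 27025 genes (14.14%), so the higher share was common to the cilium lists. Among the 9 genes with both a tested probe set and a window, 5 held it. In Ift88 and Rfx3 the match began 21 and 31 bases after the listed start, and the other 3 are shown.
Dynlrb2, chr8:116504934-116504993, plus strand: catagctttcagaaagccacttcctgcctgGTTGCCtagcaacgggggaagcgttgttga
Mlf1, chr3:67373962-67374021, plus strand: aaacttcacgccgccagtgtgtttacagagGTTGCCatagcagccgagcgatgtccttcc
Ift172, chr5:31291085-31291144, minus strand: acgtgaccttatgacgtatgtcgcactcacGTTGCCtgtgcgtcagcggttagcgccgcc
The letters GTAAACA of a forkhead site, the family to which Foxj1 belongs, stood in 2 of 28 member genes, Ak7 and Mlf1 (7.14%), and in 4.05% of genes in the whole table. A match describes letters in a window and is not a measured binding site.

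Most of the members were dim on these arrays. A probe set was tested where its signal reached the array median in 2 or more of the 3 animals of either genotype, and 13 of 33 member genes had such a probe set (39.4%), each with 1. Of 18194 annotated genes in the whole table, 64% had one. The fixed list of other motile cilium genes had 21 of 79 (26.6%), whereas genes of ciliary transport and the primary cilium, an organelle that most cells carry, had 34 of 34. Signals of different probe sets also depend on how well their probes bind, so they are set here against the array's own median and not against each other. The 13 tested genes were Foxj1, Rfx3, Dnali1, Dynlrb2, Rsph1, Rsph9, Nme5, Ccdc39, Ift88, Ift172, Ak7, Mlf1 and Tppp3. Of these, 10 reached the median in 2 or more animals of both genotypes. Dnali1 (3 wild type arrays and 1 knockout array) and Mlf1 (2 and 1) passed only through wild type, and Foxj1 (1 and 3) only through knockout. A gene that passes through the genotype where it is high tends to differ by that choice, so these 3 genes are given by their signals with no fold, and their differences support nothing. As a check of the tissue, 8 of 9 spinal cord markers with a probe set were tested, among them Mbp, Gfap and Nefl. Among ependymal genes outside the axoneme, 19 of 25 were tested, including Ccdc153 at 253 to 565 and Tmem212 at 106 to 238 over the 6 arrays, both named here as markers of multiciliated cells after their values were seen. The 19 also held Aqp4, Vim, Sox2 and Sox9. Fam183b, Calml4, Cdhr4, Cdhr3, Crym and Ccdc146 of the same list were dim and not tested.

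**Figure D1:**
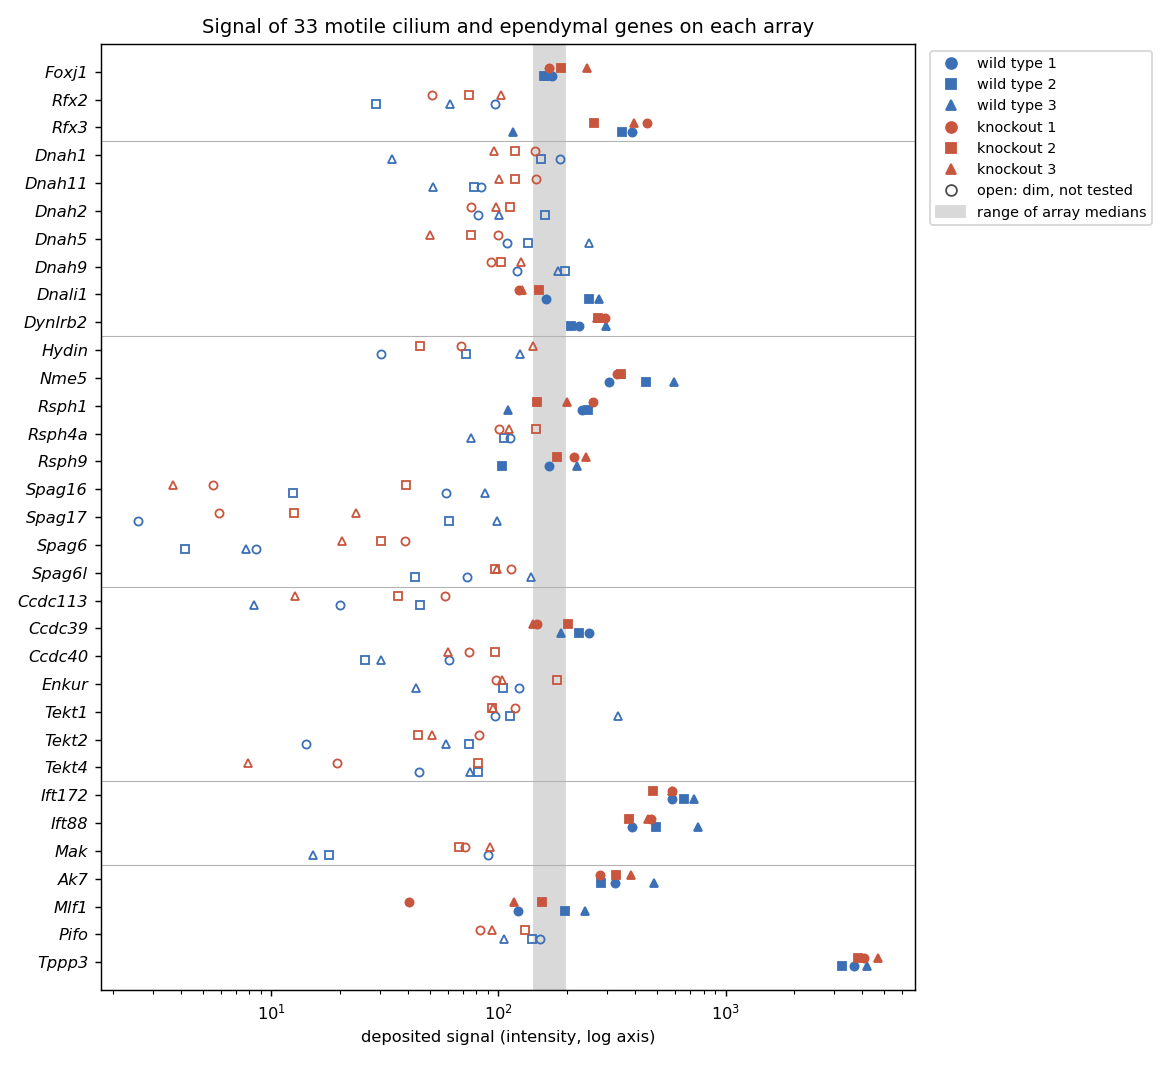
Deposited signal (intensity, log axis) of the brightest probe set of each of the 33 genes, with 1 point per array, blue for wild type, red for knockout and a shape for the replicate number. Genes are ordered by role, open points mark the 20 genes with no tested probe set, and the grey band spans the array medians of 144.1 to 195.6.

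The arrays differed in their dim signals. Wild type replicates 1 to 3 had a 5th percentile of 5.26, 10.4 and 19.98, and the value was 4.57 to 4.92 on the knockout arrays, and the median was 148.2, 169.5 and 195.6 against 144.1 to 149.3. Dividing each signal by its array's median therefore put the midpoint of log2 changes over the 23525 tested probe sets at 0.23, against 0.0079 with the deposited scaling. Log2 changes and folds below are given relative to that median, which makes them the same under both scalings, while p-values come from the unshifted fit. Summed signals of skeletal muscle markers were highest on knockout replicate 2, at 24900, followed by wild type replicate 3, at 13860, and lay between 6645 and 7831 elsewhere. Of 8 collagen and meningeal markers, 4 were higher in every knockout array than in every wild type array on both scalings, Col1a1, Col1a2, Col3a1 and Dcn, at relative folds of 1.96, 1.53, 1.36 and 1.26, and none passed (limma adjusted p = 0.382 each). Over all tested probe sets 19.9% were higher in this way after median scaling and 7.85% as deposited. Lum went the other way at 0.719-fold, lower in every knockout array as deposited but with overlap after median scaling. Ptgds, Slc6a13 and Igf2 overlapped, at relative folds of 1.03, 1.06 and 0.978. The mean Col1a1 signal was 253.5 ± 40.0 for the wild type arrays and 521 ± 213 for the knockout arrays (SD, n = 3 each). The part of muscle and collagen RNA in the results was not tested.

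No member passed the threshold between the genotypes. At a limma adjusted p under 0.05 over all tested probe sets, 0 of 13 were higher and 0 lower in knockout, beside 0 higher (0%) and 1 lower (0.00425%) of all 23525. The lower one was the Rtn4 probe set whose signals are given above. At an unadjusted p under 0.05 in limma, 1 of 13 was higher, where 11.9% of all tested probe sets were, and 0 were lower, where 1.13% were. With the deposited scaling 0 were higher (4.31% of all tested probe sets) and 1, Dnali1, was lower (3.98%). The methods' t-test at an unadjusted p under 0.05 and at least 1.2-fold called 1 member higher, Dynlrb2, and 1 lower, Dnali1. Over all tested probe sets it called 1964 higher and 217 lower. Both directions together made 15.4% of the 13 members and 9.27% of all tested probe sets. The fold here was that of the median-scaled signals before the median shift was taken off. After Benjamini-Hochberg adjustment this test called 0 members and 0 of all tested probe sets. Of the 13 genes, 6 lay above the median change of all tested probe sets and 7 below. Their median relative log2 change was -0.12. Over the 10 genes that passed the filter in both genotypes, relative log2 changes ran from -0.45 to 0.52. The middle 90% of all tested probe sets ran from -0.58 to 0.41. The median over the 13 genes was -0.18, -0.26 and -0.024 without wild type replicates 1, 2 and 3, and -0.24 without knockout replicate 3. The 3 knockout and 3 wild type values did not overlap in 4 of 13 genes after median scaling, 3 of them higher (19.9% of all tested probe sets) and 1 lower (2.07%). With the deposited scaling 0 were higher (7.85%) and 1 was lower (6.62%). The lower gene in each of these counts was Dnali1, which passed the filter only through wild type. With a filter passed in both genotypes, chosen after seeing the data, the median over the 10 members left was -0.022. In whole tissue, a change in the number of ependymal cells and a change in RNA per ependymal cell could not be told apart.

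**Figure D2:**
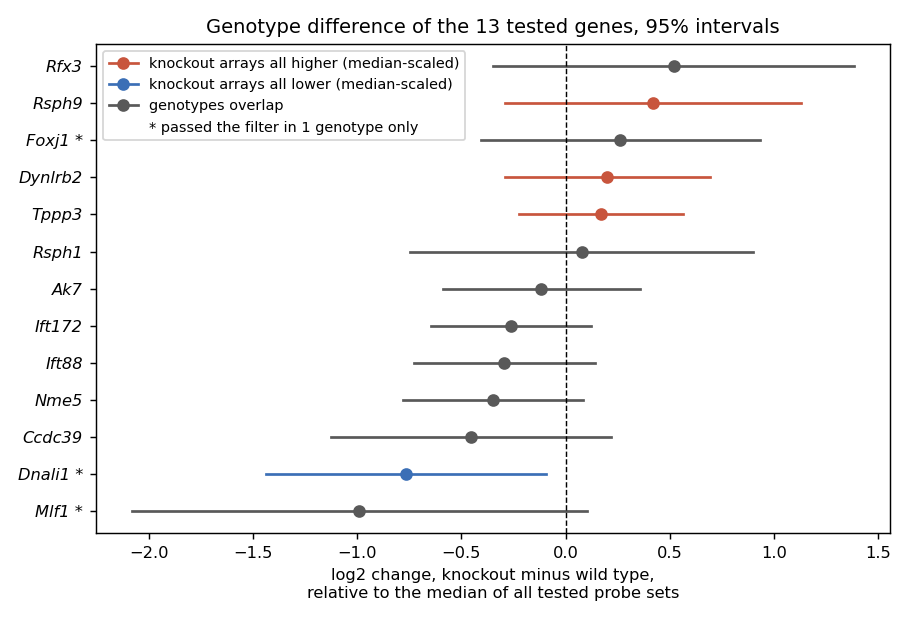
Log2 change, knockout minus wild type, of the 13 tested genes relative to the median of all tested probe sets (dashed line), with 95% intervals from limma that take that median as fixed. Stars mark the 3 genes that passed the filter in 1 genotype only, the intervals of the other 10 cross the line, and red and blue mark genes whose genotypes did not overlap after median scaling.

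No transcription factor gene passed the threshold. Foxj1 had signals of 172, 158 and 162 in wild type and 167, 189 and 245 in knockout. The lowest knockout array lay among the wild type arrays and the other knockout arrays above them. Its means were 164 ± 7.31 and 200.2 ± 40.0 (SD, n = 3 each), and it did not pass (limma adjusted p = 0.428). Rfx3 read 389, 349 and 116 in wild type and 453, 263 and 395 in knockout. Wild type replicate 3 stood far below the other arrays. The relative fold was 1.43 (95% interval of the log2 change -0.35 to 1.38, limma adjusted p = 0.398), and the relative log2 change went from 0.52 to -0.024 without wild type replicate 3. The second probe set of Rfx3 was dim, at 108 ± 65.3 in wild type against 73.8 ± 53.1 in knockout (SD, n = 3 each). All 4 probe sets of Rfx2 were dim, with mean signals of 27.4 to 78.6 in wild type and 6.14 to 75.9 in knockout.

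Dnali1 encodes a light intermediate chain of the inner dynein arms, and its signals were 163, 251 and 277 in wild type and 123, 150 and 126 in knockout. Every knockout array lay below every wild type array under both scalings, with wild type replicate 1 nearest to them. The means were 230.4 ± 60.0 and 133 ± 14.7 (SD, n = 3 each). Only 1 knockout signal, that of replicate 2, reached its array's median. It did not pass over all tested probe sets in limma (adjusted p = 0.410 after median scaling and 0.595 with the deposited scaling). The wild type signals were higher on replicates 2 and 3, the arrays with the higher dim signals, and the part of that background was not tested. The second Dnali1 probe set was dim and gave no such separation, at 33.2 ± 18.6 in wild type against 38.6 ± 41.2 in knockout (SD, n = 3 each).

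Dynlrb2, a roadblock light chain of cytoplasmic dynein that is abundant in ciliated cells, had 227, 209 and 298 in wild type and 294, 273 and 272 in knockout. As deposited, wild type replicate 3 lay above all knockout arrays, and only after median scaling were all knockout arrays higher. The relative fold was 1.15 (95% interval of the log2 change -0.29 to 0.69, limma adjusted p = 0.395). The heavy chains, which are the motors themselves, were all dim. Dnah5, of the outer arm, had 109, 135 and 250 in wild type and 99.8, 76.1 and 50.2 in knockout, with every knockout array below every wild type array. Dnah11, another outer arm heavy chain, had 84.0, 78.3 and 51.6 against 146, 118 and 101, with every knockout array above every wild type array. These 2 outer arm chains lay on opposite sides, and as dim probe sets they are given no fold. The brighter probe sets of Dnah1 and Dnah2, of the inner arms, had 125 ± 80.3 and 114 ± 41.5 in wild type and 119 ± 24.5 and 95.2 ± 18.5 in knockout (SD, n = 3 each). Dnah9, of the outer arm, had 167 ± 40.1 and 106.9 ± 16.6 (SD, n = 3 each) at its brighter probe set, with overlap.

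Radial spoke and central pair genes gave 3 tested members with no common direction. Rsph9, a protein of the spoke head, read 167, 104 and 222 in wild type and 215, 181 and 242 in knockout. Wild type replicate 3 lay within the knockout range as deposited, and below all knockout arrays after median scaling. The relative fold was 1.34 (95% interval of the log2 change -0.29 to 1.13, limma adjusted p = 0.389). Rsph1, also of the spoke head, read 234, 249 and 110 in wild type and 261, 147 and 200 in knockout, so that each genotype held a low array. Its relative log2 change of 0.077 (95% interval -0.75 to 0.90, limma adjusted p = 0.656) became -0.29 without wild type replicate 3 and -0.12 without knockout replicate 1. Nme5, a nucleoside diphosphate kinase homologue of the radial spoke, read 306, 445 and 593 in wild type and 334, 345 and 346 in knockout. The knockout arrays lay close together, inside a wide wild type range, with a relative fold of 0.786 (95% interval of the log2 change -0.78 to 0.085, limma adjusted p = 0.747).

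The remaining genes of this role were dim. Rsph4a had 97.7 ± 19.7 in wild type against 120 ± 24.1 in knockout (SD, n = 3 each). Spag6, a central pair protein, had 8.56, 4.15 and 7.74 in wild type and 38.6, 30.4 and 20.4 in knockout, which did not overlap, yet all 6 signals lay far under the array median. Its close copy Spag6l had 84.7 ± 49.0 and 102.6 ± 9.20 (SD, n = 3 each), and since the sequences are alike the annotated probe sets may share transcripts. The probe sets of Spag16, Spag17 and Hydin, of the central pair, had means of 9.96 to 85.0 in either genotype, with overlap in all 8.

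Of the genes for doublet structure and docking, Ccdc39 alone was tested. Ccdc39 and Ccdc40 form the ruler that sets the spacing of spokes and inner arms along the doublet. Ccdc39 read 250.2, 227 and 188 in wild type and 147, 202 and 142 in knockout. As deposited, knockout replicate 2 lay within the wild type range and the other knockout arrays below it. After median scaling wild type replicate 3 was the lowest of all arrays. The relative fold was 0.730 (95% interval of the log2 change -1.12 to 0.22, limma adjusted p = 0.689), and its other 2 probe sets were dim. Ccdc40 read 60.7, 25.7 and 30.3 in wild type and 74.3, 96.1 and 60.01 in knockout, all dim, and overlapped as deposited. Tekt1, a tektin of the doublet wall, had 96.5, 112 and 336 in wild type and 118, 93.8 and 95.1 in knockout, with wild type replicate 3 alone above its array median. Tekt2, Tekt4, Ccdc113 and Enkur had means of 24.6 to 90.5 in wild type and 35.6 to 127 in knockout, with overlap in each.

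Ift88 and Ift172, both of intraflagellar transport, were above the array median on all 6 arrays. Ift88, a core protein of the transport trains, read 387, 494 and 759 in wild type and 471, 374 and 454 in knockout, with wild type replicate 3 above the rest. The relative fold was 0.816 (95% interval of the log2 change -0.73 to 0.14, limma adjusted p = 0.867). Ift172, another train protein, read 580.5, 654 and 725 in wild type and 584, 479.8 and 579.6 in knockout. As deposited, knockout replicate 1 overlapped wild type replicate 1 and the other knockout arrays lay below. After median scaling, knockout replicates 1 and 3 lay above all wild type arrays and knockout replicate 2 below them. The relative fold was 0.834 (95% interval of the log2 change -0.65 to 0.12, limma adjusted p = 0.924). Both serve the primary cilia of other cells too. Mak, a kinase that limits cilium length, was dim at both probe sets, with means of 41.0 and 83.2 in wild type and 76.7 and 33.3 in knockout.

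Tppp3, a tubulin polymerization promoting protein also made outside ciliated cells, had the smallest p of the members in the median-scaled limma fit, though not with the deposited scaling, where its unadjusted p was 0.166. It read 3680, 3260 and 4214 in wild type and 4060, 3826 and 4694 in knockout. As deposited, wild type replicate 3 lay within the knockout range, and after median scaling every knockout array was above every wild type array. The means were 3718 ± 478 and 4193 ± 449 (SD, n = 3 each), a relative fold of 1.12 (95% interval of the log2 change -0.23 to 0.56, limma unadjusted p = 0.0484 and adjusted p = 0.382). Ak7, an adenylate kinase of the cilium, read 327, 282 and 486 in wild type and 281, 330.4 and 385 in knockout, with a relative log2 change of -0.12 (95% interval -0.59 to 0.36, limma adjusted p = 0.781) that turned to 0.12 without wild type replicate 3. Mlf1, a protein abundant in ciliated cells, read 121, 195 and 240 in wild type and 40.4, 156 and 118 in knockout. Knockout replicate 1 was far below the rest, and of the knockout arrays only replicate 2 reached its array's median. Pifo, which acts at the base of the cilium, was dim at 133 ± 24.2 and 102.6 ± 25.6 (SD, n = 3 each).

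The 20 genes with no tested probe set and the dim probe sets of the others made 36 probe sets. Of these, 3 were higher without overlap after median scaling (3.45% of all 21512 untested probe sets), at Spag6, Dnah11 and Ccdc40. Another 2 were lower (9.16%), at Dnah5 and 1 of the 4 probe sets of Rfx2, which read 10.8, 13.05 and 58.4 in wild type and 6.60, 6.98 and 4.83 in knockout. Over all untested probe sets the lower side was the larger, and wild type replicates 2 and 3 had the higher dim signals.

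The spread between animals differed from gene to gene. The median SD within a genotype was 0.27 on the log2 scale over the 13 genes and 0.26 over all tested probe sets. Ift172 and Dynlrb2 varied least, at 0.14 each, and Rfx3, Mlf1 and Rsph1 most, at 0.87, 0.75 and 0.66. As deposited, wild type replicate 3 was the highest of the 6 arrays in 7 of 13 genes, where it was so in 26.6% of all tested probe sets, and the lowest in 2, where it was so in 28.5%. After median scaling it was the highest in 3, beside 8.06% of all tested probe sets, and the lowest in 4, beside 57.8%. Rsph1 and Rsph9, both of the spoke head, stood apart on that array after median scaling, at -1.11 and -0.02 on the log2 scale from their own means over the arrays. The transcription factor genes Rfx3 and Foxj1 stood at -1.69 and -0.47 there.

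**Figure D3:**
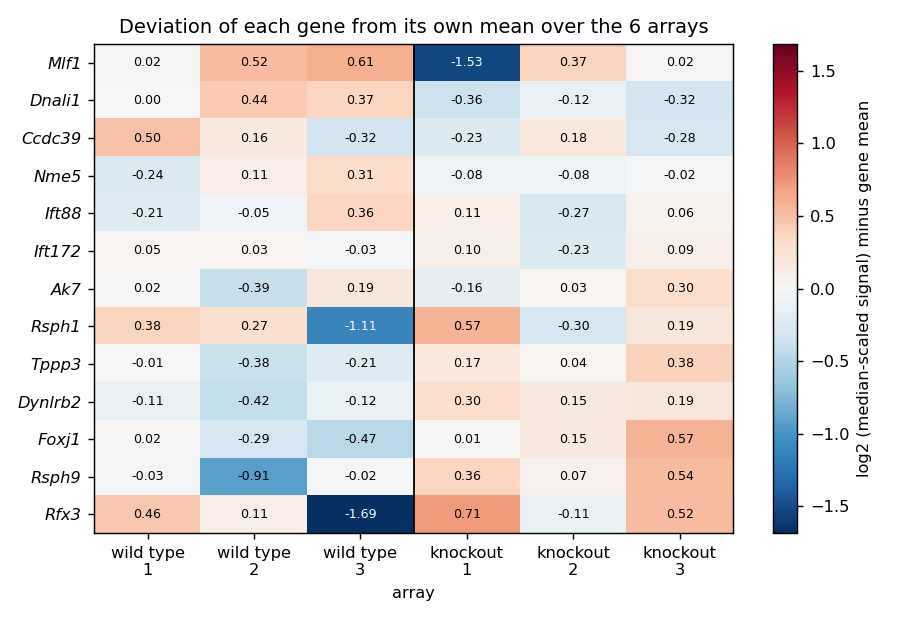
Log2 of the median-scaled signal minus the gene's own mean over the 6 arrays, for the 13 tested genes (rows, in order of relative change) and the arrays (columns, with a line between genotypes). The deepest colours are single arrays, Rfx3 on wild type replicate 3 at -1.69, Mlf1 on knockout replicate 1 at -1.53 and Rsph1 on wild type replicate 3 at -1.11.

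Related lists gave no calls either, and no gene in them passed over all tested probe sets in limma. The 21 tested members of the list of other motile cilium genes had a median relative log2 change of -0.12, with 7 above the median of all tested probe sets and 14 below. Of the 21, 12 passed the filter in both genotypes, and their median was -0.069. At an unadjusted p under 0.05 in limma, 2 were higher and 2 lower, and the lower pair passed only through wild type, so its p-values support nothing. It was Cfap61, a protein of the spoke base, with 151, 178 and 183 in wild type and 21.9, 61.3 and 26.2 in knockout, and Tctex1d4, a dynein light chain family member, with 114, 304 and 327 against 106, 77.3 and 83.3. All knockout signals of both lay under the array median, so no fold is given. The higher pair was Cfap410 at 1.20-fold and Tekt5, a tektin, at 1.23-fold (limma adjusted p = 0.382 each). The list of multiciliated cell commitment had 5 tested genes and a median of -0.10. It was led by the tubulin Tubb4b at 1.07-fold, Plk4, a kinase of centriole duplication, Rfx1 at 0.933-fold and the cell cycle factor E2f5 at 0.819-fold (limma adjusted p = 0.405 to 0.868). Plk4 passed only through knockout and is given no fold, with 161, 157 and 154 in wild type and 153, 198 and 190 in knockout.

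The 34 genes of ciliary transport and the primary cilium had a median of -0.017, with 15 above and 19 below. The smallest p-values belonged to Ift122 at 1.14-fold, Ttc21b at 1.18-fold, the kinesin motor gene Kif3a at 1.12-fold and Ift46 at 1.07-fold (limma adjusted p = 0.382 to 0.413). The 19 tested ependymal genes outside the axoneme had a median of -0.20, with 4 above and 15 below. Ezr, which ties actin to the membrane, was 0.395-fold, S100a6, a calcium-binding protein, 1.43-fold, Dbi, an acyl-CoA binding protein, 1.21-fold and Cd24a, a surface glycoprotein, 1.11-fold, all also made by other cells of the cord (limma adjusted p = 0.382 to 0.389). Choroid plexus, a ciliated epithelium of the brain ventricles, was checked as another source: 2 of 9 of its markers were tested, Clic6 and Kcnj13, and the defining marker Ttr had 3.41 to 135 over the arrays, under the median of each. Clic6 read 177, 247 and 425 in wild type and 179, 176 and 137 in knockout (limma adjusted p = 0.420). Blood cell markers had 2 tested genes, and of these Slc4a1 read 57.03 to 80.8 in wild type and 188 to 256 in knockout, so that it passed only through knockout. The other, Alas2, passed in both genotypes at 1.08-fold (limma adjusted p = 0.395). Its genotypes overlapped as deposited but not after median scaling. Hba-a1 was dim, at 46.7 ± 23.3 in wild type against 22.1 ± 16.05 in knockout (SD, n = 3 each), with overlap.

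**Figure D4:**
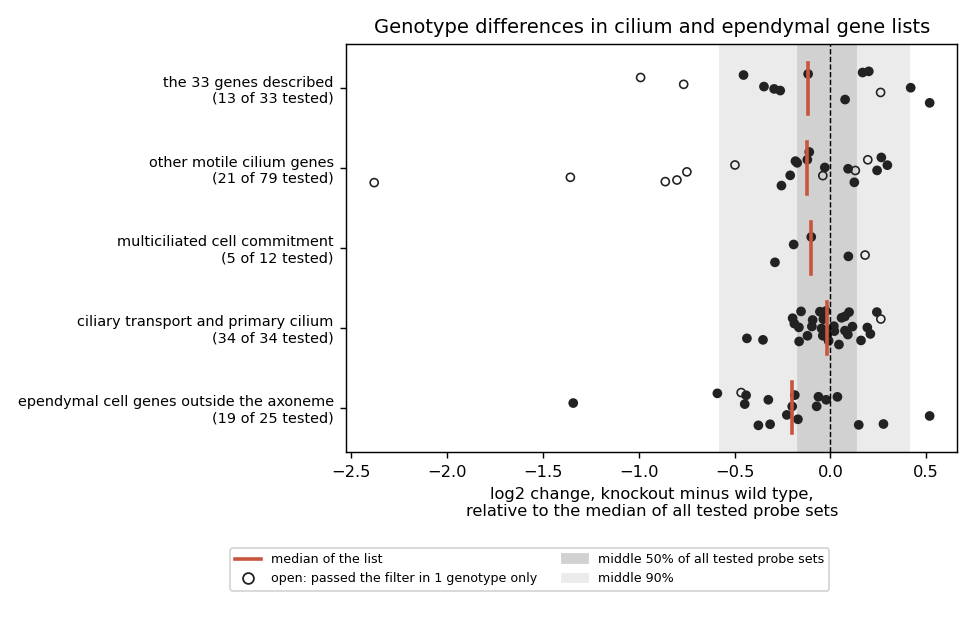
Log2 change, knockout minus wild type, relative to the median of all tested probe sets (dashed line), with 1 point per tested gene, a red bar at the median of each list and grey bands for the middle 50% and 90% of all tested probe sets. Open points mark genes that passed the filter in 1 genotype only, and list medians lie between -0.20 and -0.017.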

How the data were processed

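Deposited intensities of 6 Mouse 430 2.0 arrays were used, 1 per animal. The authors obtained these intensities with MAS5 in GCOS 1.4, per the submitters' processing notes. The trimmed mean of every array was 500.0 after removal of 2% at each end, so the arrays had been scaled to 1 target. Present calls were not used here.

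Intensities were divided by the array median and put on the log2 scale, and 64 control probe sets were left out. Probe sets at or above the 50th percentile on 2 of 3 arrays of a genotype were fitted in limma 3.58.1 (R 4.3.3, lmFit, eBayes with trend), with Benjamini-Hochberg adjustment over all 23525. The fit was checked on simulated data. Names came from the platform annotation through RefSeq's GRCm38.p6 gene table: leaving controls out, 34945 probe sets had 1 symbol (34741 in that table), 932 several and 9160 none. The brightest tested probe set stood for its gene. All members are named, and of each other list up to 4 genes with the smallest p. Members and lists were chosen with earlier results of these data known. Groups came from the titles. The precision is limited by 3 arrays per genotype.

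Alternatives were quantile normalization, the deposited scaling, no filter and filters at percentiles 25 and 75, an offset of 0.25 of the array median, the replicate number as a replicate block, no trend, leaving out single arrays, the mean of a gene's probe sets, and the 1-factor test of the design text, called the methods' t-test. Promoter windows were searched by letters.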

Additional observations from a re-analysis of the deposited data

How the results depend on the processing

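The count of members past the adjusted threshold was 0 under all alternatives but the methods' t-test without adjustment, which gave 2. The deposited scaling, no trend, the replicate block, the mean of probe sets and the methods' t-test repeat, or nearly repeat, a member's relative log2 change. Its direction could hardly turn under them. With these settings counted, 216 of 220 values of single members over the alternatives kept their direction. The 4 that did not came from single arrays left out: without wild type replicate 3, Rsph1 had -0.287, Ak7 0.123 and Rfx3 -0.0244, and without knockout replicate 1 Rsph1 had -0.124. With single arrays left out, Rsph1 ranged from -0.287 to 0.289, Ak7 from -0.289 to 0.123 and Rfx3 from -0.0244 to 0.829. The median over members was -0.015 without a filter, taken over the same tested members and not the dim ones. There the median of all probe sets moved, and every member's relative value moved by about the same amount. The median over members was -0.0222 with a filter passed in both genotypes, chosen after seeing the data. It was -0.263 to -0.0244 with single arrays left out. Such moves reached beyond the spread between replicates of 0.0616. The count over all tested probe sets, 1 in limma, was 0 with the filter passed in both genotypes (2688 of 21081 at an unadjusted p under 0.05), 17 with the 75th percentile filter, 2 with the offset, 2 without the trend, 2181 in the methods' t-test and 0 after its adjustment, and 1 to 678 with single arrays left out (wild type replicates 1, 2 and 3 left out gave 678, 3 and 10, and knockout replicate 1 left out gave 3). With the replicate block it was 215, with 0 members among them. The labels share replicate numbers, but same-numbered arrays had correlations of -0.035, 0.074 and 0.114 in their deviations from the genotype means, so the numbers were not taken as pairs. Wild type replicate 1 correlated best with knockout replicate 2 (0.08), whereas wild type replicates 2 and 3 correlated best with the knockout arrays of the same number. The adjusted p of Tppp3 ranged from 0.0635, without wild type replicate 1, to 0.883 in limma. The filter at the 75th percentile left values for Ift172 and Tppp3 only. Apart from the moved median without a filter, the causes of these differences were not tested, and signals near the array median limit most members.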
